A study of Homo sapiens with 6 samples.

Results

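The genes described here are 9 epithelial keratins, KRT7, KRT8, KRT10, KRT15, KRT18, KRT19, KRT20, KRT23 and KRT80, measured by RNA-seq in HCT116 cells, a human colorectal carcinoma (COAD) line. They were taken by symbol from a table of 58735 genes, which also listed 46 other protein-coding keratins. The cells came in 3 control-transfected libraries (CTR), labelled wild type, and 3 libraries of cells given 50 nM miR-8485 mimics with the lipid reagent DMRIE-C, collected 48 h after transfection. The comparison asks which transcripts changed after transfection of this miRNA into COAD cells. All libraries came from 1 cell line, described as 3 independent biological replicates, and what the control cells were transfected with, and at which dose, is not given in the sources used here. CTR replicate 1 stood apart from its group, with a chi-square per gene of 12.83 and 10.18 against the other CTR libraries, where the other 4 pairs of replicates had 2.91 to 4.36.

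Keratins are the intermediate filament proteins of epithelial cells. A filament is built from pairs of 1 type I and 1 type II chain, so a cell that makes keratin filaments expresses genes of both types. In the single-layered epithelium of the colon, the type II keratin KRT8 pairs with the type I keratins KRT18, KRT19 and KRT20, and the filaments run to desmosomes and hemidesmosomes, where they give the cell sheet its mechanical strength. KRT10, KRT15 and most of the other keratins are known mainly from stratified epithelia such as skin, and the hair keratins from the hair shaft.

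A mimic is a synthetic RNA with the sequence of a mature miRNA, which recognises mRNAs chiefly through its seed, bases 2 to 8. The sequence of the mimic as given by the study, 5′ to 3′ and with the seed in capitals, is shown together with the only match to its seed found in the keratins, in the 3′ UTR of KRT80 at transcript position 3349, where capitals mark the matching letters.
miR-8485 mimic: cACACACAcacacguau
KRT80 3′ UTR: tggagaaagcTGTGTGTctgtttttat
The letters TGTGTGT, which pair with the seed, were searched in the transcript that GENCODE release 44 tags as canonical for each gene. They occurred 1 time in KRT80 and 0 times in the whole transcripts of the other 8 keratins, whose 3′ UTRs run from 64 bases in KRT18 to 472 in KRT20, against 2402 in KRT80. In the same annotation, 25.43% of 19550 canonical 3′ UTRs held the letters, as did 14.95% of the 14631 that are no longer than that of KRT80. A match is a description of letters and no measurement of binding. The sequence given for the mimic has 17 bases. It was not compared with that of mature miR-8485, which the sources used here do not hold.

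Of the 9 keratins, 6 were downregulated in the miR-8485 libraries, among them the 3 abundant ones, KRT8, KRT18 and KRT19, which fell to between 51.0 and 67.0% of their CTR level. KRT20 and KRT23 were upregulated, and KRT10 was not past the threshold. The test was limma on log2(FPKM + 0.1), two-sided, over the 12349 genes with a mean of at least 1 FPKM over the 6 libraries, with calls made where p after Benjamini-Hochberg adjustment was under 0.05. FPKM, the unit deposited by the authors, is the number of fragments relative to gene length and to the total of the library. All 9 keratins passed the filter, KRT20 through its miR-8485 libraries. The 6 downregulated keratins, 66.7% of the 9, stand against 30.5% of all tested genes, and the 8 called in either direction, 88.9%, stand against 59.6%. The libraries of the groups did not overlap for these 8, 6 of them lower in miR-8485, as was the case for 66.5% of all tested genes, 34.0% with the lower values in miR-8485. The median log2 fold change of the 9 was -0.46, that of all tested genes was -0.0041, and the genes at the 5th and 95th percentiles had -0.98 and 0.91. Among the 362 genes with a mean of at least 100 FPKM, 27.1% were downregulated and 51.1% upregulated. The FPKM of all genes summed to 322999 to 339641 in the CTR libraries and to 351052 to 369643 in the miR-8485 libraries. Rescaling to TPM, which sets these sums equal, moved the median of all genes to -0.12 and their balance from 3593 upregulated and 3769 downregulated genes to 2614 and 4723, without changing the direction or the call of any of the 9 keratins. Without CTR replicate 1 the same 6 keratins were called lower and the same 2 higher. The log2 fold changes were then -0.97 for KRT18, -0.76 for KRT7, -0.61 for KRT8, -0.53 for KRT19, -0.45 for KRT15, -0.42 for KRT80, 0.33 for KRT10 (adjusted p = 0.089, limma), 0.33 for KRT23 and 1.44 for KRT20.

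**Figure D1:**
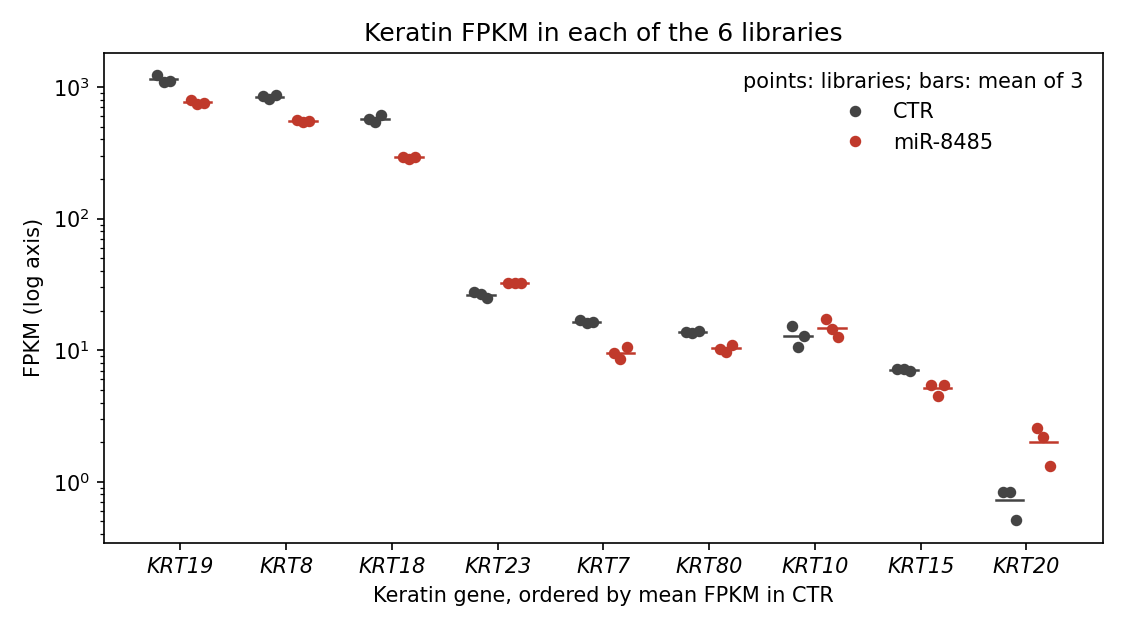
FPKM of the 9 keratins on a log axis, with a point for each of the 3 CTR and 3 miR-8485 libraries and a bar for the mean of each group. KRT19, KRT8 and KRT18 lie between 286 and 1230 FPKM and the other 6 between 0.509 and 32.7 FPKM, and the points of the 2 groups overlap for KRT10 and for no other gene.

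The libraries held 17473874 to 18480047 fragments on listed genes, with 23755 to 23957 genes above 0. Of the 12 markers of colonic epithelium other than keratins, all were above 0 and 8 had a mean of at least 1 FPKM. VIL1, CDH17, LGALS4 and CDX1 were below that mean, so the sum of the list hardly reflects them. Their summed level was 382 to 411 FPKM in CTR and 390 to 403 FPKM in miR-8485, and EPCAM, a surface protein of epithelial cells, had 135 FPKM in CTR and 130 in miR-8485 (log2 fold change -0.05, adjusted p = 0.55, limma). VIM, the filament gene of mesenchymal cells, had at most 0.183 FPKM in any library. The leukocyte marker sums were at most 1.01 FPKM with CD3E at 0, and those of endothelial markers at most 0.312. Fibroblast markers summed to 5.22 to 5.63 FPKM in CTR and 8.97 to 9.07 in miR-8485, with DCN at 0. COL1A1, a collagen chain with 4.25 FPKM in CTR and 6.31 in miR-8485, and ACTA2, smooth muscle actin with 0.973 and 2.57, were their only genes with a mean of at least 1 FPKM, ACTA2 through its miR-8485 libraries, and their part in the keratin results was not tested. In bulk RNA, fewer cells that express a gene and less RNA of it per cell cannot be told apart.

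KRT18 is the type I partner of KRT8 in simple epithelia, and its cleavage by caspases is a known event of apoptosis. It is encoded on chromosome 12 of hg38, plus strand, from 52948871 to 52952901. KRT18 was measured at 570, 539 and 609 FPKM in CTR replicates 1 to 3 and at 293, 286 and 297 FPKM in miR-8485 replicates 1 to 3. Each CTR library had at least 31360 fragments of KRT18 and each miR-8485 library at most 18183, so the groups were far apart. The mean fell from 572 ± 35.0 FPKM in CTR to 292 ± 5.61 FPKM in miR-8485 (SD, n = 3 in each group), and its log2 fold change came to -0.97 ± 0.05 (SE, adjusted p = 9.6e-06, limma) with a 95% interval from -1.09 to -0.85. This was the largest fall among the 9, and 5.2% of all tested genes had a lower fold change.

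KRT8, the main type II keratin of simple epithelia, is the neighbour of KRT18 on chromosome 12, minus strand, from 52897187 to 52949954. The CTR libraries had 853, 817 and 873 FPKM of KRT8, and the miR-8485 libraries 561, 543 and 553 FPKM. No library of one group reached the other. From 848 ± 28.3 FPKM (SD, n = 3), KRT8 fell to 552 ± 9.23 FPKM (SD, n = 3), or 65.1% of CTR, and its log2 fold change came to -0.62 ± 0.04 (SE, adjusted p = 2.6e-05, limma).

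The intervals of the fold changes of KRT8 (-0.72 to -0.52) and KRT18 did not overlap. The ratio of KRT8 to KRT18 FPKM was 1.497, 1.516 and 1.434 in the CTR libraries and 1.91, 1.90 and 1.86 after miR-8485 transfection. Every miR-8485 ratio was above every CTR ratio. The mean ratio rose from 1.48 ± 0.0431 (SD, n = 3) to 1.89 ± 0.0268 (SD, n = 3), and the exact permutation test, two-sided, gave p = 0.1, the smallest value that 3 against 3 libraries allow. The log2 difference of this ratio was 0.35 in all libraries and 0.36 without CTR replicate 1. The level of the ratio, though not its change between groups, depends on the gene lengths used by the authors. These were 6881 bases for KRT8 and 3218 for KRT18, against 1784 and 1413 in the canonical transcripts.

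KRT19 encodes the smallest keratin, a type I chain found in ductal and intestinal epithelium and used in serum as a tumour marker fragment. Its gene lies on chromosome 17, minus strand, from 41523617 to 41528308. Values of 1230, 1095 and 1116 FPKM in CTR and of 801, 747 and 756 FPKM in miR-8485 were measured. All 3 miR-8485 libraries were below all 3 CTR libraries, and CTR replicate 1 was the highest. The mean fell from 1147 ± 72.9 FPKM in CTR to 768 ± 29.0 FPKM in miR-8485 (SD, n = 3 in each group), and its log2 fold change came to -0.58 ± 0.06 (SE, adjusted p = 0.00013, limma). Quantile normalization, which gives all libraries the same distribution, moved this value to -0.89.

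**Figure D2:**
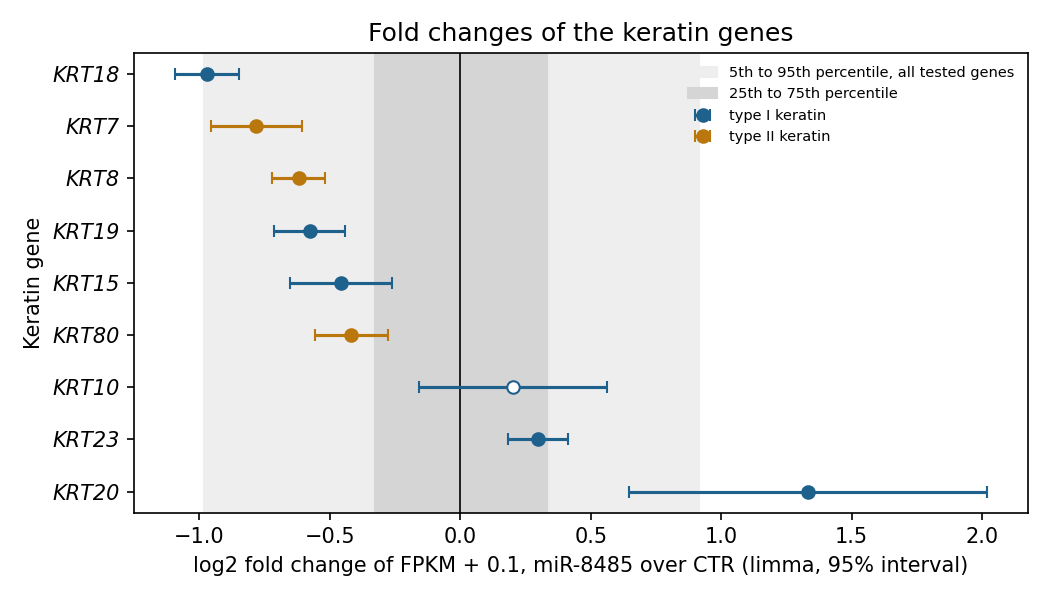
Log2 fold change of FPKM + 0.1, miR-8485 over CTR, with the 95% interval of limma, for the 9 keratins coloured by type. Filled points were called at an adjusted p under 0.05, and grey bands hold the middle ranges of all tested genes (5th percentile -0.98, 95th percentile 0.91). KRT18 is lowest at -0.97, KRT20 highest at 1.33, and the interval of KRT10 crosses 0.

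The other type II keratins of the set are KRT7 and KRT80. KRT7, a keratin of ductal and glandular epithelium that is usually low in the colon, lies on chromosome 12, plus strand, from 52232520 to 52252186. KRT7 had 16.9, 16.03 and 16.2 FPKM in CTR and 9.48, 8.60 and 10.5 FPKM in miR-8485. The groups were well apart, since the highest miR-8485 library had 818 fragments and the lowest CTR library 1187. Its mean fell from 16.4 ± 0.452 FPKM in CTR to 9.53 ± 0.945 FPKM in miR-8485 (SD, n = 3 in each group), and its log2 fold change came to -0.78 ± 0.07 (SE, adjusted p = 1e-04, limma).

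KRT80, found in many epithelia and the keratin that carries the seed match, lies on chromosome 12, minus strand, from 52168996 to 52192000. The measurements were 13.8, 13.5 and 14.0 FPKM in CTR and 10.3, 9.61 and 11.0 FPKM in miR-8485, and the groups did not overlap. KRT80 fell from 13.8 ± 0.251 FPKM in CTR to 10.3 ± 0.706 FPKM in miR-8485 (SD, n = 3 in each group), and its log2 fold change came to -0.42 ± 0.06 (SE, adjusted p = 0.00074, limma).

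KRT15, a type I keratin of basal cells and of stem cells in stratified epithelium, lies next to KRT19 on chromosome 17, minus strand, from 41513743 to 41522529. It had 7.13, 7.13 and 6.90 FPKM in CTR against 5.47, 4.497 and 5.42 FPKM in miR-8485. The CTR libraries were close together, with 883 to 912 fragments each, and lay above all miR-8485 libraries, which had 575 to 730. The mean fell from 7.06 ± 0.133 FPKM in CTR to 5.13 ± 0.550 FPKM in miR-8485 (SD, n = 3 in each group), and its log2 fold change came to -0.46 ± 0.08 (SE, adjusted p = 0.0023, limma).

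KRT10, the type I keratin of the upper layers of the epidermis, lies on chromosome 17, minus strand, from 40818117 to 40822595. CTR libraries had 15.3, 10.6 and 12.8 FPKM and miR-8485 libraries 17.4, 14.4 and 12.6 FPKM. The groups overlapped, and the SD within each, relative to its mean, was larger than for any other keratin but KRT20. The means were 12.9 ± 2.35 FPKM (SD, n = 3) and 14.8 ± 2.42 FPKM (SD, n = 3), the log2 fold change came to 0.20 ± 0.15 (SE, adjusted p = 0.29, limma) and its 95% interval ran from -0.16 to 0.56. No difference was detectable at this spread, and a rise of up to 0.56 lies within the interval.

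KRT23, a type I keratin expressed in some colon carcinomas, lies on chromosome 17, minus strand, from 40922696 to 40937634. It was measured at 27.7, 26.6 and 24.9 FPKM in CTR and at 32.5, 32.3 and 32.7 FPKM in miR-8485. All miR-8485 libraries were above all CTR libraries and nearly equal among themselves. KRT23 rose from 26.4 ± 1.39 FPKM in CTR to 32.5 ± 0.202 FPKM in miR-8485 (SD, n = 3 in each group), and its log2 fold change came to 0.30 ± 0.05 (SE, adjusted p = 0.0015, limma). After rescaling to TPM it was 0.18 (adjusted p = 0.038, limma), over a median of all genes of -0.12.

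KRT20, the type I keratin of differentiated cells of the gut surface and a pathology marker of colorectal tumours, lies on chromosome 17, minus strand, from 40875941 to 40885227. Its level was the lowest of the 9, at 0.841, 0.838 and 0.509 FPKM in CTR and 2.56, 2.19 and 1.31 FPKM in miR-8485. These values rest on 28, 28 and 17 fragments in CTR and 85, 73 and 46 fragments in miR-8485. Replicate 3 was the lowest library of both groups, and the groups did not overlap. KRT20 rose from 0.730 ± 0.191 FPKM in CTR to 2.02 ± 0.644 FPKM in miR-8485 (SD, n = 3 in each group), a 2.77-fold rise of the mean, and its log2 fold change came to 1.33 ± 0.29 (SE, adjusted p = 0.0058, limma) with a 95% interval from 0.65 to 2.02. With a pseudocount of 1 in place of 0.1 the log2 fold change was 0.79 (adjusted p = 0.0058, limma), since a pseudocount shrinks the changes of low genes. In the fit of all genes above 0 in any library, which does not depend on the filter, its adjusted p was 0.021.

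The sum of the 9 keratins was 2735, 2525 and 2673 FPKM in CTR and 1733, 1647 and 1679 FPKM in miR-8485. As a share of all fragments, the 9 genes took 1.09, 1.02 and 1.08% of the CTR libraries and 0.693, 0.664 and 0.678% of the miR-8485 libraries. KRT8, KRT18 and KRT19 made up 97.0 to 97.2% of the summed FPKM in CTR and 95.5 to 95.7% in miR-8485. KRT18 took 20.8 to 22.8% of the sum in CTR and 16.9 to 17.7% in miR-8485, without overlap. KRT8 took 31.2 to 32.7% in CTR and 32.4 to 32.9% in miR-8485, and KRT19 took 41.8 to 45.0% and 45.0 to 46.2%. The mean share of KRT23 went from 0.999 to 1.93%. The type II genes KRT7, KRT8 and KRT80 took 32.3 to 33.8% of the sum in CTR and 33.5 to 34.2% in miR-8485. These shares rest on the gene lengths given by the authors. By the length of the canonical transcripts, a choice made after seeing the data, the type II share was 49.3 to 50.6% in CTR and 51.2 to 51.7% in miR-8485, and that of KRT18 was 19.1 to 20.5% and 15.5 to 16.1%.

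**Figure D3:**
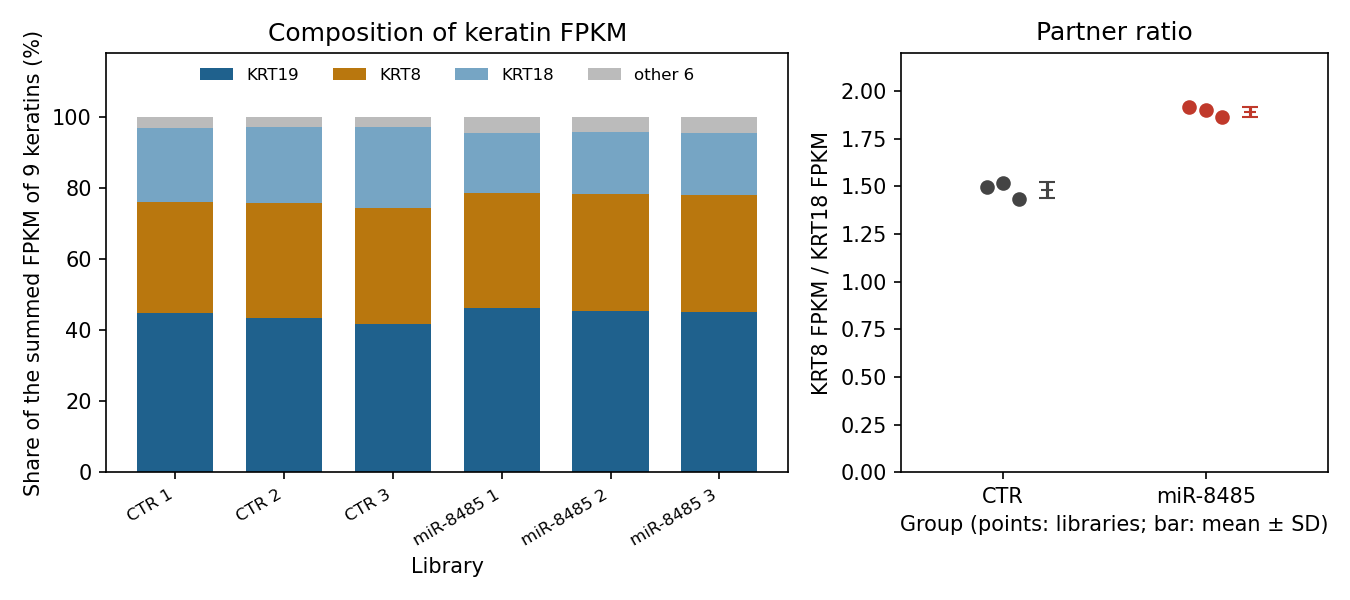
Left, share of each library's summed keratin FPKM (in percent, from 0) taken by KRT19, KRT8, KRT18 and the other 6 keratins, and right, the ratio of KRT8 to KRT18 FPKM with a point per library and the mean with its SD. The KRT18 share is at least 20.8% in CTR and at most 17.7% in miR-8485, and the ratio lies at 1.43 to 1.52 in CTR and 1.86 to 1.91 in miR-8485.

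By FPKM the order in CTR was KRT19, KRT8, KRT18, KRT23, KRT7, KRT80, KRT10, KRT15 and KRT20, and only KRT80 and KRT10 had overlapping libraries among neighbours. In miR-8485 the order was KRT19, KRT8, KRT18, KRT23, KRT10, KRT80, KRT7, KRT15 and KRT20, and of neighbours only KRT80 and KRT7 overlapped. KRT7 lay above KRT80 and KRT10 in CTR and below them in miR-8485 with the lengths given by the authors. Among protein-coding genes, KRT19 moved from rank 20 to 37 in mean FPKM, KRT8 from 27 to 51 and KRT18 from 41 to 91. The levels depend on the gene length used by the authors, which for KRT8 was 6881 bases against 1784 in its canonical transcript and for KRT15 was 7069 against 1712. Divided by canonical length, a choice made after seeing the data, KRT8 led with 3269 ± 109 FPKM (SD, n = 3) in CTR, ahead of KRT19 with 1928 ± 123 (SD, n = 3) and KRT18 with 1304 ± 79.7 (SD, n = 3). By this length KRT7 was above both KRT80 and KRT10 in each group, at 41.3, 15.5 and 12.9 FPKM in CTR and 24.0, 11.6 and 14.8 FPKM in miR-8485. Ratios of FPKM between the groups do not depend on this length, and the log2 fold changes depend on it only through the pseudocount of 0.1.

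Some fragments of these genes could belong to other rows. The KRT8 and KRT18 genes overlap by 1084 bases on opposite strands, and in GENCODE release 44 their exons share 525 bases, of which 375 lie in the canonical KRT18 transcript and 0 in that of KRT8. Whether the counting used strand is not given in the sources used here, so reads from these bases cannot be assigned to one of the genes. KRT10 overlaps TMEM99 on the opposite strand by 3490 bases, and TMEM99 had 8.71 FPKM in CTR and 11.6 in miR-8485. KRT7 overlaps KRT86 by 2887 bases on the same strand and KRT7-AS by 2401 bases on the opposite strand, both below 1 FPKM on average. KRT80 overlaps LINC00592 by 23005 bases and KRT23 overlaps AC004231.1 by 14939 bases, non-coding genes of the opposite strand that were also below 1 FPKM. The overlaps given for KRT10, KRT7, KRT80 and KRT23 are of whole gene spans, introns included. In GENCODE release 44 the exons of KRT7 and KRT7-AS share 282 bases, and those of KRT10 and KRT10-AS1 share 61. That release gave no exons under the symbol TMEM99, and whether KRT10-AS1 is the same locus was not checked. KRT8, KRT18 and KRT19 also have processed pseudogenes that resemble their mRNAs, in 50, 67 and 5 rows. These took 0.197 to 0.286% of the fragments of KRT8 and its copies, 0.036 to 0.156% for KRT18 and at most 0.002% for KRT19. Adding them to the parents left the ratio of KRT8 to KRT18 at 1.49 in CTR and 1.90 in miR-8485. Whether reads that map to several places were counted is not given in the sources used here. Reads left out of both parent and copy would not be covered by this sum.

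KRT8P12 and KRT8P3, KRT8 pseudogenes, were the only 2 of these rows with a mean of at least 1 FPKM. KRT8P3 went from 5.82 ± 0.690 FPKM in CTR to 3.48 ± 0.313 FPKM in miR-8485 (SD, n = 3 in each group) and was called lower (log2 fold change -0.72, adjusted p = 0.00085, limma), in the direction of KRT8. KRT8P12 went the other way, from 0.730 ± 0.136 FPKM in CTR to 1.44 ± 0.329 FPKM in miR-8485 (SD, n = 3 in each group), and was called higher (log2 fold change 0.88, adjusted p = 0.015, limma). It passed the filter only through its miR-8485 libraries, its adjusted p was 0.036 in the fit of all genes above 0, and it was not called without miR-8485 replicate 1 or 2 (adjusted p up to 0.065, limma). Their values are uncertain, since reads of near-identical copies can be split between rows.

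Of the 46 other protein-coding keratins, 11 were at 0 in every library, 33 were above 0 with a mean under 1 FPKM, and 2 passed the filter, through the CTR group where they were high, and were downregulated. KRT81, a hair keratin of type II, had 3.62, 2.24 and 3.75 FPKM in CTR and 0.548, 0.344 and 0.245 FPKM in miR-8485, from 78 to 131 and 9 to 19 fragments. The log2 fold change came to -2.80 ± 0.30 (SE, adjusted p = 0.00018, limma). KRT13, the type I keratin of the mucosa of mouth and oesophagus, had 2.65, 2.81 and 2.60 FPKM in CTR and 1.01, 0.797 and 1.10 FPKM in miR-8485, and its log2 fold change came to -1.39 ± 0.14 (SE, adjusted p = 0.00015, limma). In the fit of all genes above 0 both were called as well (adjusted p = 0.0011 for KRT81 and 0.00075 for KRT13, limma). KRT81 and KRT86 are near-identical paralogs, so their values are uncertain. In the fit of all 31768 genes above 0, where 22.1% of genes were called, 11.3% lower and 10.8% higher, 35 of the other keratins were tested. In that fit 4 were downregulated and 0 upregulated (limma), and 7 were lower and 3 higher at an unadjusted p under 0.05. The others called were KRT16 (log2 fold change -1.64, adjusted p = 0.0041, limma) and KRT86 (-1.44, adjusted p = 0.028, limma). On recovered fragments, voom fitted to 21396 genes with at least 10 fragments tested 22 of them and called 6 lower and 3 higher, where it called 21.1% of all its genes lower and 20.6% higher. The 3 higher ones, KRT9, KRT12 and KRT36, are named after their values were seen. KRT16, a stress keratin of stratified epithelium, rests on 37 to 39 fragments in CTR and 8 to 11 in miR-8485.

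The other proteins of the keratin network changed in both directions, where 29.1% of all tested genes were upregulated and 30.5% downregulated. Of 14 desmosome genes 9 were tested, 4 upregulated and 2 downregulated, with a median log2 fold change of 0.13. PERP, a membrane protein of desmosomes, rose from 73.8 ± 2.33 FPKM in CTR to 109 ± 1.29 FPKM in miR-8485 (SD, n = 3 in each group). Its log2 fold change was 0.57 (adjusted p = 2.7e-05, limma). JUP, the plaque protein plakoglobin, rose by 0.41 and PKP2, a plakophilin, by 0.31 on the log2 scale. Of the cadherins, DSC2 and DSG2 fell by 0.30 and 0.27, and DSC3 rose by 0.27 (adjusted p = 0.027, limma). Under the alternatives 3 to 5 genes of this list were upregulated, with 3 after rescaling to TPM and in the fit of all genes above 0. There were 3 without CTR replicate 1 or 2 or miR-8485 replicate 2 or 3, and 5 without CTR replicate 3. DSP, the desmoplakin that ties keratin filaments to the plaque, had 20.3 FPKM in CTR and 20.8 in miR-8485, with log2 fold change 0.04 (adjusted p = 0.69, limma).

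All 10 genes of cytolinkers and hemidesmosomes, which join keratins to the basement membrane and to other filaments, were tested. Of these 4 were upregulated and 5 downregulated, against 29.1% and 30.5% of all tested genes, with a median of -0.10. The integrin pair of the hemidesmosome had the largest falls of this list. ITGA6 had 22.5, 21.9 and 23.6 FPKM in CTR and 5.97, 6.80 and 8.11 FPKM in miR-8485, and its log2 fold change came to -1.70 ± 0.10 (SE, adjusted p = 1.4e-05, limma). ITGB4, its partner, had 79.9, 88.1 and 87.9 FPKM in CTR and 28.1, 26.6 and 30.3 FPKM in miR-8485, and its log2 fold change came to -1.59 ± 0.06 (SE, adjusted p = 2.9e-06, limma). Both integrins fell more than any of the 9 keratins. PLEC, the plectin that links the integrins to keratin, fell by 0.32 (adjusted p = 0.0026, limma) and MACF1 by 0.49, while COL17A1, EVPL and PPL rose by 0.63, 0.42 and 0.22. The 4 upregulated genes of this list became 2, COL17A1 and EVPL, after rescaling to TPM or removal of the GC trend. With a filter on a mean of at least 5 FPKM only 6 genes of the list were tested, 3 upregulated and 3 downregulated. MACF1, with 4.13 FPKM in CTR and 2.92 in miR-8485, was not tested there. In the fit of all genes above 0 PPL was not called (adjusted p = 0.058, limma), nor was it without CTR replicate 1 or 2 or miR-8485 replicate 2 or 3.

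**Figure D4:**
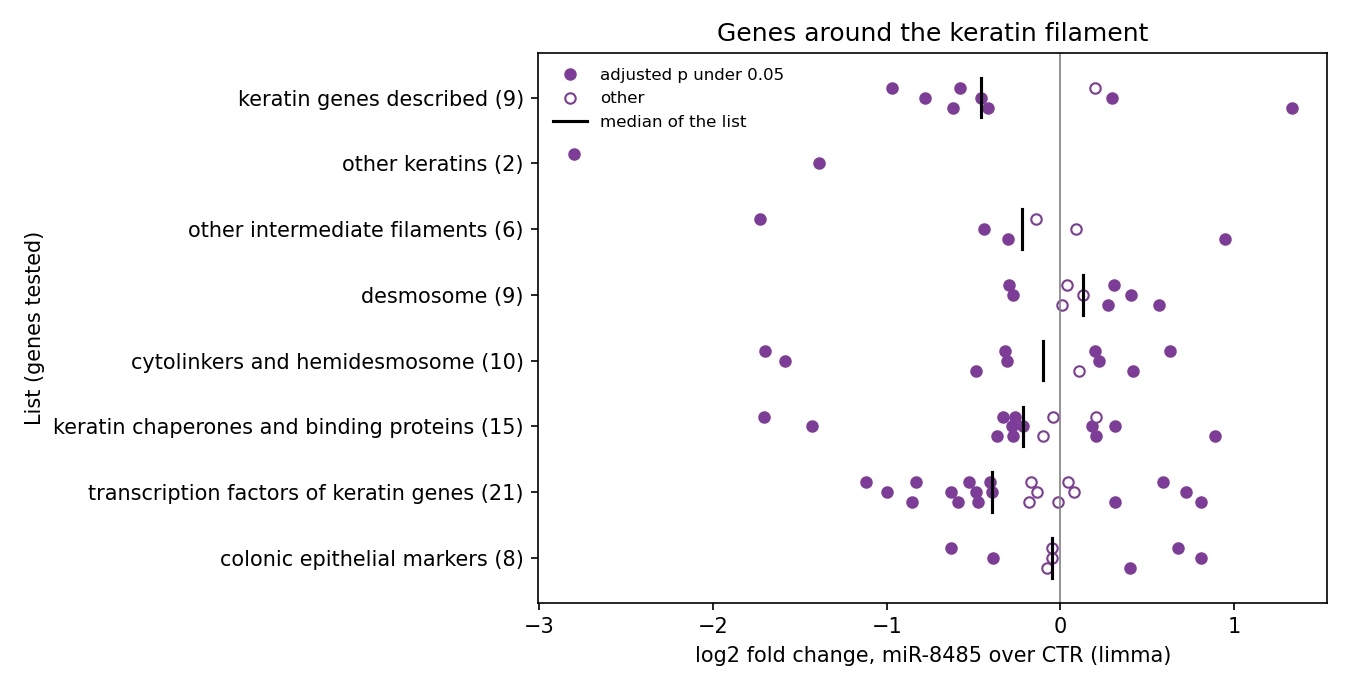
Log2 fold change, miR-8485 over CTR, of each tested gene in the lists around the keratin filament, filled where the adjusted p was under 0.05, with a bar at the median of lists of more than 2 genes. The medians lie between -0.46 for the 9 keratins and 0.13 for desmosome genes, and SFN, ITGA6 and ITGB4 lie at -1.71, -1.70 and -1.59.

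Of 17 chaperones and binding proteins of keratins 15 were tested, with 4 upregulated, 8 downregulated and a median of -0.22. The counts in this paragraph stand against 29.1% upregulated and 30.5% downregulated of all tested genes. SFN, the 14-3-3 sigma protein known to bind keratins, fell from 258 ± 27.7 FPKM in CTR to 78.7 ± 4.56 FPKM in miR-8485 (SD, n = 3 in each group), with log2 fold change -1.71 (adjusted p = 5.8e-06, limma). TGM2, a crosslinking transglutaminase, fell by 1.43 and TCHP, a keratin-binding protein, by 0.36 on the log2 scale. TRADD, a death receptor adaptor that binds KRT18, rose from 8.87 to 16.6 FPKM, with log2 fold change 0.89 (adjusted p = 0.00015, limma). TXNDC17 and PRKCZ rose by 0.32 and 0.20. The 4 upregulated genes of this list became 1 without miR-8485 replicate 1, after rescaling to TPM and in the fit of all genes above 0, and 2 without CTR replicate 2 or 3 or with the GC trend removed. In the fit of all genes above 0 TRADD was the one called (adjusted p = 0.00097, limma), and TXNDC17, PRKCZ and TCHP were not (adjusted p = 0.057, 0.058 and 0.056, limma). TCHP also lost its call without CTR replicate 2 or 3 or any 1 of the miR-8485 libraries, and PRKCZ without CTR replicate 1 or 2 or miR-8485 replicate 1 or 2. Of 15 other intermediate filament genes 6 were tested, with 1 upregulated and 3 downregulated, and a median of -0.22. LMNA, the lamin of the nuclear envelope, fell from 102 to 75.2 FPKM (log2 fold change -0.44, adjusted p = 0.00013, limma) and LMNB1 by 0.30. DES, the muscle filament desmin, fell by 1.73 on the log2 scale to 0.544 FPKM and passed the filter only through its CTR libraries (adjusted p = 0.003 in the fit of all genes above 0, limma), and BFSP1, a lens filament protein, rose by 0.95 to 5.14 FPKM.

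Of 24 transcription factors known to act on keratin genes 21 were tested, with 4 upregulated, 11 downregulated and a median of -0.39. Over all tested genes, 29.1% were upregulated and 30.5% downregulated. CDX2, the homeobox factor of intestinal identity, had 16.2, 15.5 and 16.4 FPKM in CTR and 29.4, 27.0 and 28.3 FPKM in miR-8485, and its log2 fold change came to 0.81 ± 0.05 (SE, adjusted p = 1.4e-05, limma). Its relative CDX1 had at most 0.0314 FPKM in any library. JUN and GRHL2 rose by 0.73 and 0.59. FOS and FOSL2, AP-1 subunits that pair with JUN, fell by 1.12 and 0.86. KLF4, a factor of epithelial differentiation, fell from 19.6 to 9.79 FPKM, with log2 fold change -0.999 (adjusted p = 2.5e-05, limma).

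CDX2 prefers sites with the core TTTATG. The RefSeq promoter table of build GRCh38.p14, with 250 bases before and 50 after each start, held 3 of the 9 keratins, KRT8, KRT10 and KRT20. KRT20, called higher, and KRT10, not called, held the core, and KRT8 held none, in a window that lies away from the start of its canonical transcript. The stretches are shown on the strand of the gene, 5′ to 3′, with the motif in capitals, for KRT20 at chr17:40885254-40885283 (minus strand, the reverse complement of the core), and for KRT10 at chr17:40822719-40822748 and chr17:40822626-40822655 (minus strand).
KRT20, CDX core 29 bases before the start: gcctgtggacttCATAAAaggctagctcaa
KRT10, CDX core 122 bases before the start: tactgaagataaTTTATGcaatcataagcc
KRT10, TATA box 29 bases before the start: accctctcagtaTATAAAggcttgtcactg
Searched on both strands of 35116 such promoters, TTTATG occurred in 10.58%, the TATA box letters TATAAA in 11.53%, the GC box GGGCGG in 44.95% and the AP-1 site TGAGTCA in 4.95%. The GC box and the AP-1 site occurred in none of the 3 keratin promoters. These matches are a description of letters, and binding was not measured.

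Among colonic epithelial markers other than keratins, CDX2, CLDN3 and CLDN7 were the 3 upregulated and ELF3 and CLDN4 the 2 downregulated of 8 tested, with a median of -0.05. These counts stand against 29.1% upregulated and 30.5% downregulated of all tested genes. CLDN3 and CLDN7, tight junction claudins, rose by 0.68 and 0.40 on the log2 scale, CLDN4 fell by 0.39 and ELF3, an epithelial transcription factor, by 0.63. The genes whose levels were most like KRT18 over the 6 libraries were TSN, ESCO2 and P2RY2, with Pearson's r of 0.9998, 0.9996 and 0.9996 on log2(FPKM + 0.1). For KRT8 they were MSMO1, GAS7 and RAB31, with 0.9997, 0.9994 and 0.9992. All 6 of these genes were lower in the miR-8485 libraries, and since the points fall into the 2 groups these values mainly describe the difference between groups.

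**Figure D5:**
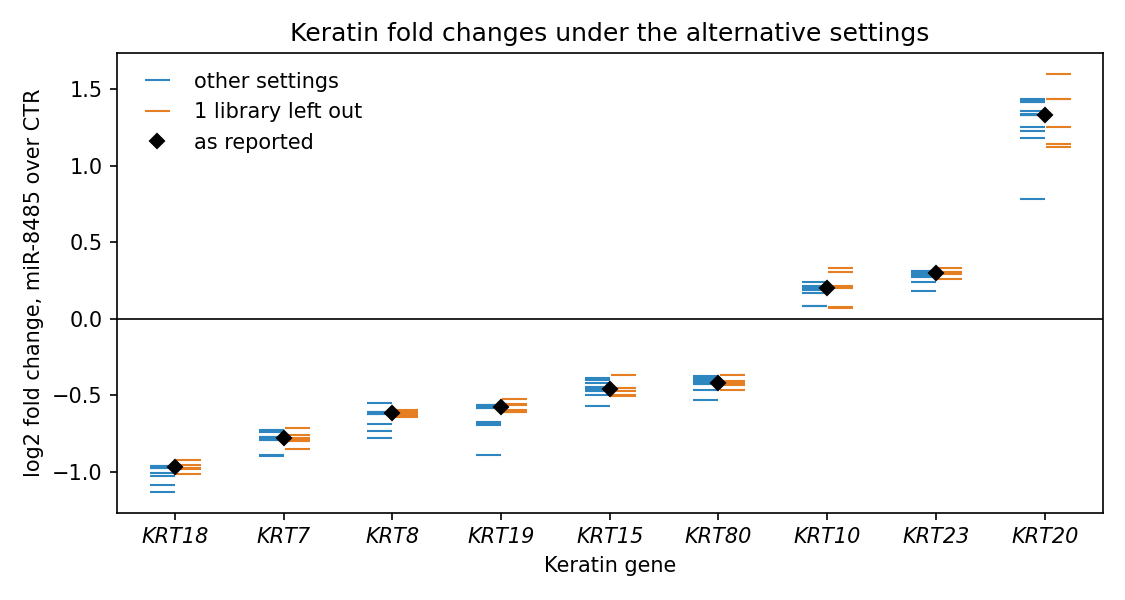
Log2 fold change of each keratin as reported (diamond), under other scalings, filters, pseudocounts and tests (left dashes) and with 1 library left out (right dashes). Each keratin stays on its side of 0 in all of them, with KRT18 between -1.13 and -0.93, KRT10 between 0.07 and 0.33 and KRT20 between 0.79 and 1.6.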

How the data were processed

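RNA-seq libraries of HCT116 cells were prepared by the authors from TRIzol-extracted RNA with a VAHTS kit and sequenced on a NovaSeq instrument. The authors used fastp for trimming and HISAT2 2.0.5 for mapping to hg38, counted fragments per gene with featureCounts 1.5.0-p3, tested counts with DESeq2, and deposited FPKM values, which divide fragments by gene length and library total. Strand use in the counting is not given in the sources used here.

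Libraries were grouped by their labels, with 3 per group and 0 unmapped columns. At least 99.97% of values above 0 were whole multiples of 1 fragment (tolerance 0.01), so that fragments were recovered and library totals computed. Replicates of a group differed by more than sampling noise (chi-square per gene 2.91 to 4.36, but 10.18 and 12.83 for the 2 pairs with CTR replicate 1). log2(FPKM + 0.1) was fitted with limma 3.58.1 (R 4.3.3, variance trend on) for genes with a mean of at least 1 FPKM, and 31768 genes above 0 were fitted for genes below that filter. p-values were two-sided and adjusted by Benjamini-Hochberg. Scripts were tested on simulated data.

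The keratins, lists and tests were chosen with earlier results of these data known. Named genes were all 9 keratins, in each list up to 3 called genes with the largest rise and up to 3 with the largest fall among those whose libraries did not overlap, and genes named by function. The alternatives were other pseudocounts, filters and scalings, no variance trend, a replicate block and each library left out in turn. Removal of a GC trend, voom fits of other gene sets and levels and shares by canonical length were added after seeing the data. Sequences came from GENCODE release 44, the RefSeq promoter table and the study's methods.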

Additional observations from a re-analysis of the deposited data

How the results depend on the processing

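The 9 keratins gave 179 fold changes under 20 alternatives, and all kept the direction and the side of the threshold reported. With a filter on a mean of at least 5 FPKM, KRT20 was not tested, so 1 keratin was called higher and 6 lower, and of 6878 genes tested 2303 were called higher and 2417 lower. With each library left out in turn, 3124 to 3561 of all tested genes were called higher and 3382 to 3663 lower, and the ratio of KRT8 to KRT18 kept its direction. Rescaling to TPM gave 35.6% of called genes higher, against 48.8% as deposited. Same-numbered libraries did not deviate together (correlations -0.064 to 0.067), and a replicate block gave 3634 higher and 3754 lower genes, with the same 2 and 6 keratins called. Of 280 counts over the lists, 261 stayed within 1.5 times the reported count and 19 moved. KRT20, with 17 to 28 fragments in the CTR libraries, is the keratin whose depth limits precision most.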
